A study of Mus musculus with 13 samples.

Results

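The 38 genes described here are genes of the proximal tubule of the kidney, followed in RNA of isolated mouse glomeruli. They were chosen by name from a marker list, and all 38 are among the 35967 gene symbols with a TPM value (a transcript level scaled by transcript length and to the same total in each library). Wildtype Balb/c mice received 2.0 mg of IgG intraperitoneally. Control mice (n = 5) received rabbit preimmune IgG, and the day 1 (n = 4) and day 5 (n = 4) groups received rabbit anti-THSD7A IgG, which binds a podocyte foot process protein and gives the THSD7A-associated model of membranous nephropathy (MN). Only male mice were used for this model. The control group mixes animals of either day, and the sources used here do not say which. Glomeruli were collected with magnetic beads perfused into the kidney, a method that carries some tubule along.

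The proximal tubule is the segment that directly follows the glomerulus. Its cells reabsorb most of the filtered sodium, phosphate, glucose and amino acids through apical carriers, take up filtered protein by endocytosis through megalin and cubilin, secrete organic anions from the blood, and make glucose and break down fatty acids. None of the glomerular cell types (podocytes, mesangial cells, glomerular endothelium) performs these tasks as a group, although single genes of the list can be made there too, so the 38 transcripts together were read as a measure of tubular RNA in a glomerular preparation. In bulk RNA, more tubular cells and more tubular RNA per cell cannot be told apart.

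The proximal tubule genes moved together from library to library, and the library of control replicate 5 stood apart from the other 4 controls. Summed over the 38 genes, the level was 0.52, 0.455, 0.655 and 0.642% of the listed TPM in control replicates 1 to 4, and 1.30% in control replicate 5. The day 1 libraries held 1.16, 1.15, 0.726 and 1.03%, and the day 5 libraries held 0.551, 0.518, 0.605 and 0.563%. All 4 day 1 libraries thus lay above control replicates 1 to 4, none lay above control replicate 5, and the day 5 libraries lay inside the range of control replicates 1 to 4. Means were 0.715% ± 0.34 (SD, n = 5) in controls, 1.02% ± 0.201 (SD, n = 4) for the day 1 libraries and 0.559% ± 0.036 (SD, n = 4) for those of day 5, and 0.568% ± 0.0968 (SD, n = 4) in controls without replicate 5.

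The lists of glomerular cell types had another order of libraries. The 12 podocyte genes present summed to between 0.85 and 1.13% of the listed TPM in controls, 0.934 and 1.13% at day 1 and 1.03 and 1.09% at day 5. The 8 mesangial genes summed to 0.18% in control replicate 5, below the other 12 libraries at 0.222 to 0.31%. Relative to that podocyte sum, the proximal tubule sum was 0.459, 0.536, 0.582, 0.615 and 1.16 in control replicates 1 to 5, 1.24, 1.2, 0.751 and 0.91 at day 1, and 0.535, 0.475, 0.571 and 0.528 at day 5. At day 5 against control, 6 of the 12 podocyte genes had an unadjusted p under 0.05 by limma, as had 20.1% of all genes. Their sum at day 5 stayed within the control range. A separate list of 95 further proximal tubule genes had the same order of groups, at 0.545% ± 0.205 (SD, n = 5), 0.716% ± 0.111 (SD, n = 4) and 0.479% ± 0.0249 (SD, n = 4), with control replicate 5 again the highest library at 0.887%. The 26 genes of the loop of Henle, distal tubule and collecting duct had another order of libraries, though day 1 again had the highest mean. Control replicate 5, at 0.072%, lay below control replicate 4, at 0.0754%, as did 1 of the day 1 libraries, which held 0.0956, 0.0859, 0.0752 and 0.129%. Their means were 0.0612% ± 0.0141 (SD, n = 5) in controls, 0.0965% ± 0.0233 (SD, n = 4) for day 1 and 0.0621% ± 0.00828 (SD, n = 4) for day 5.

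**Figure D1:**
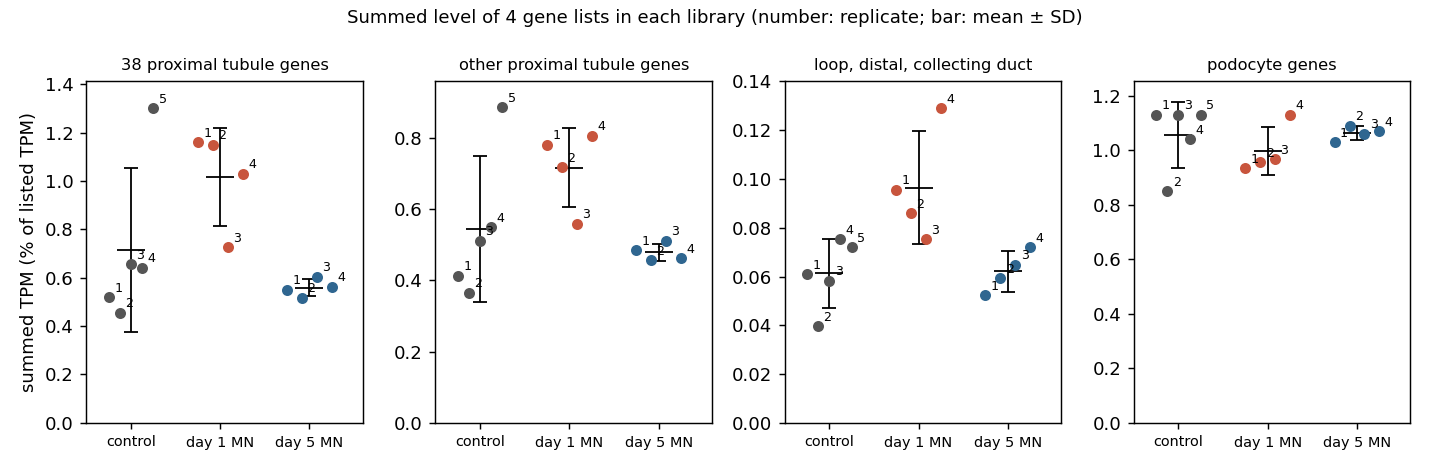
Summed TPM of 4 gene lists as a percent of all listed TPM (vertical axes, each from 0 with its own scale) in each library of the control, day 1 MN and day 5 MN groups; numbers are replicates and bars are mean ± SD. Control replicate 5 reached 1.30% for the 38 proximal tubule genes, above all day 1 libraries, but not for the loop, distal and collecting duct list.

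Gene by gene, control replicate 5 was the highest of the 13 libraries for 25 of the 38 genes, day 1 replicate 1 for 8, day 1 replicate 4 for 4 and day 1 replicate 2 for 1. Control replicate 2 was the lowest for 31. For 22 genes, control replicate 5 and the 4 day 1 libraries were the 5 highest of the 13. The ratio of control replicate 5 to control replicate 2 had a median of 3.39 over the 37 genes that passed the filter on low values, from 0.884 to 5.78, and was at least 2 for 34 of them. Over all 14322 tested genes the same ratio had a median of 0.93 and was at least 2 for 5.22%.

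The spread within the control group was wide. On the log2 scale, the median SD of the 37 genes was 0.71 among controls, against 0.16 for all tested genes, and 0.36 against 0.15 when control replicate 5 was left out. At day 1 it was 0.30 against 0.17, where replicate 3 was the lowest of the 4 libraries for 28 of the 38 genes. At day 5 the proximal tubule genes varied no more than other genes, 0.15 against 0.15. Of the 3 groups, day 5 was the most even for these transcripts.

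**Figure D2:**
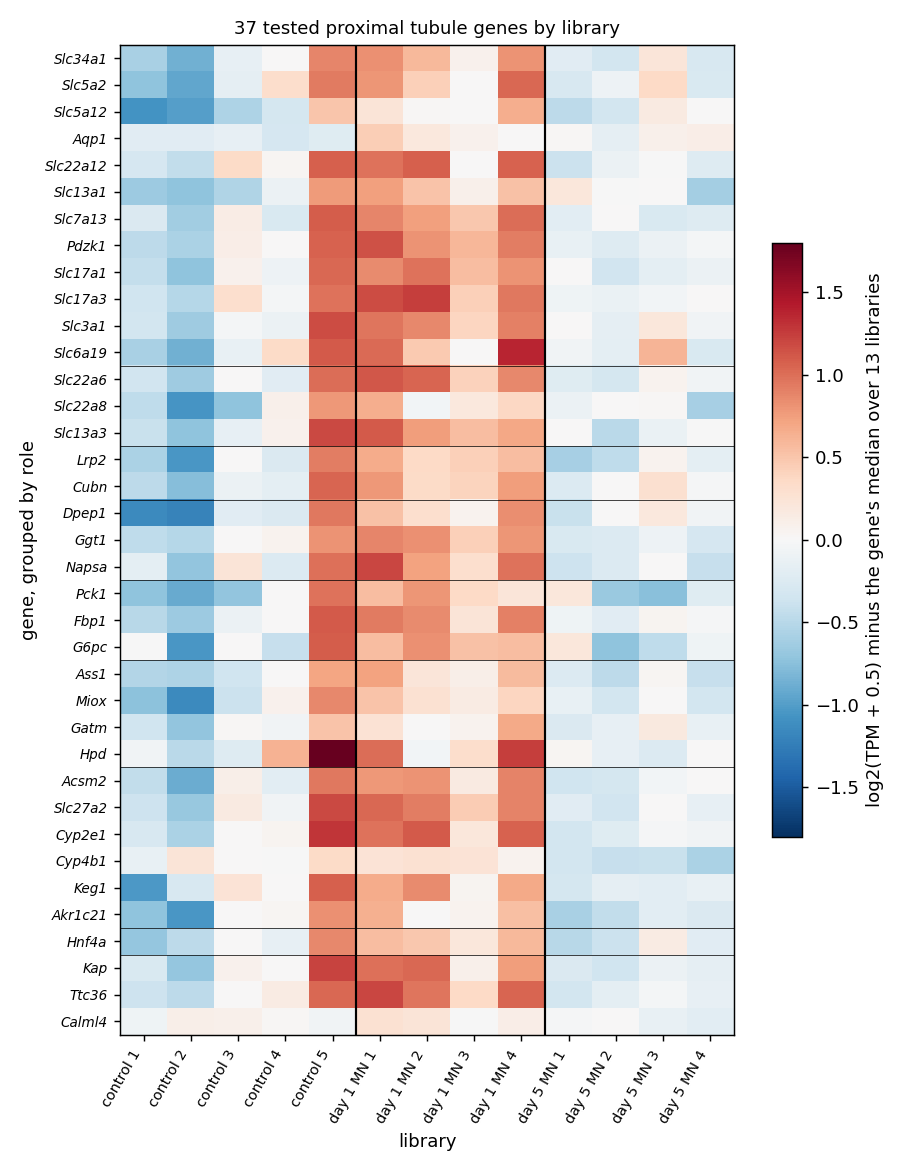
Level of each of the 37 tested genes (rows, grouped by role) in each of the 13 libraries (columns), as log2(TPM + 0.5) minus the gene's median over the libraries; red is above and blue below that median. Control replicate 5 and the day 1 libraries are red in most rows and control replicate 2 is blue, while *Aqp1* and *Calml4* do not share that pattern. *Cyp4b1* is weakly red in control replicate 5 and the day 1 libraries, but also in control replicate 2.

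The upstream sequences of the 38 genes, *Aqp1*, *Cyp4b1* and *Calml4* included, were read from the RefSeq promoter table (GRCm38.p6). This table gives 250 bases before and 50 bases after a transcript start. It held 38 promoters of 31 of the 38 genes. They were searched on both strands for the letters GTTAAT, a half-site of the HNF1 factors, and CAAAGTCC, a core of the site bound by HNF4, both known as transcription factors of proximal tubule cells. The HNF1 letters were found in 10 of these 38 promoters (26.3%) and in 7.1% of all 32851 promoters in the table. The HNF4 letters were found in 4 (10.5%) and in 1.42% of all, and no match of one motif overlapped a match of the other. These are matches of letters and no evidence of binding.

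Shown are *Slc34a1* and *Slc3a1*, which hold both motifs, *Slc22a6*, which had the highest log2 fold change at day 1, *Kap*, the most abundant of the 38, and *Cyp4b1* and *Aqp1*, whose levels followed a different pattern. Capitals mark the HNF1 and HNF4 letters on either strand.
Slc34a1 (chr13:55399398-55399697, plus strand): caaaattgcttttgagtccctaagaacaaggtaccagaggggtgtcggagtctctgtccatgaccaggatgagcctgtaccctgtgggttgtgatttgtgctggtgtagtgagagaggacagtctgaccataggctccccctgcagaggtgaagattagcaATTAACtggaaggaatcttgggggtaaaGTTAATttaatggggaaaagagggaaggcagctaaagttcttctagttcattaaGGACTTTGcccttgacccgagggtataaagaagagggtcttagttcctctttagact
Slc3a1 (chr17:85028097-85028396, plus strand): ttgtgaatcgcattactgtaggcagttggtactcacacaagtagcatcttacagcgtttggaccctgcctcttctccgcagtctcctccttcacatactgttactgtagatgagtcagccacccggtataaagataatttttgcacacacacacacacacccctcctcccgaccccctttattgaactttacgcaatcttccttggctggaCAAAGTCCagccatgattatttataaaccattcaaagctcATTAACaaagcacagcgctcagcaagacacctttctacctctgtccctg
Slc22a6 (chr19:8617746-8618045, plus strand): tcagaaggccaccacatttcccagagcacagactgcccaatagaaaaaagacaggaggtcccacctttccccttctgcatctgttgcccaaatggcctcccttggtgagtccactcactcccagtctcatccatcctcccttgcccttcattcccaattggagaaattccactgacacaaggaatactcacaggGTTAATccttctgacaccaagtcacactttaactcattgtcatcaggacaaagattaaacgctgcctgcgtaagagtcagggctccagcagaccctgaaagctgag
Kap (chr6:133853618-133853917, minus strand): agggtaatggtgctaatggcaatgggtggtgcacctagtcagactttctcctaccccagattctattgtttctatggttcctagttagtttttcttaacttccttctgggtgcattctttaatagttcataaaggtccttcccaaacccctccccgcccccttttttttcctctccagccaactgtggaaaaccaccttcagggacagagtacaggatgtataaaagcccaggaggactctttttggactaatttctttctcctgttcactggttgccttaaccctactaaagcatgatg
Cyp4b1 (chr4:115647672-115647971, minus strand): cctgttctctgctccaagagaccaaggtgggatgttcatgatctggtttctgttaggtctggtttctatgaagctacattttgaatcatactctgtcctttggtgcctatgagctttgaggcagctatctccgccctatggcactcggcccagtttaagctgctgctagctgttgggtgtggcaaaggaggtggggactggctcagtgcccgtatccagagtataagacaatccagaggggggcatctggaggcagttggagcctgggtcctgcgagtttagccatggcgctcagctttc
Aqp1 (chr6:55336049-55336348, plus strand): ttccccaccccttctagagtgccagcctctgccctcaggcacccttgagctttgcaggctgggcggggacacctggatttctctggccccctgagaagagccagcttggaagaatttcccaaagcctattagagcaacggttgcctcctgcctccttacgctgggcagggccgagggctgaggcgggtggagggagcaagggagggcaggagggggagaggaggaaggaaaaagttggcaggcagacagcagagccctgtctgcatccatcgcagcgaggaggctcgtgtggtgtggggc
In *Slc34a1* the HNF1 letters began 89 and 61 bases before the transcript start and the HNF4 letters 7 bases before it. In *Slc3a1* the HNF4 letters began 39 bases before the start and the HNF1 letters at transcribed base 2, and in *Slc22a6* the HNF1 letters began 56 bases before it. The windows of *Kap*, *Cyp4b1* and *Aqp1* held neither run of letters. Nor did those of *Lrp2*, *Cubn*, *Fbp1*, *Ass1*, *Slc13a3*, *Slc27a2*, *Cyp2e1*, *Slc17a1* and *Slc17a3*. These genes, like *Slc3a1* and *Slc22a6*, had control replicate 5 and the 4 day 1 libraries as their 5 highest.

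Among the 12 genes of apical transport, *Slc34a1*, the sodium-phosphate cotransporter NaPi-IIa of the brush border, was the most abundant. It measured 139.8, 115, 189, 209.7 and 388 TPM in control replicates 1 to 5, 369.5, 316, 221 and 366 in the day 1 libraries and 181, 167, 244 and 172 in the day 5 libraries. The day 1 libraries lay above control replicates 1 to 4 and below control replicate 5, and day 5 overlapped both controls and day 1. The log2 fold change at day 1 was 0.76 (SE 0.29, adjusted p = 0.331) by limma with Benjamini-Hochberg adjustment, and 1.03 (SE 0.21, adjusted p = 0.0273) without control replicate 5. Control replicate 5 was singled out by its values for these same genes, so fits without it show only the dependence on that library. *Slc22a12*, the urate exchanger URAT1, measured 43.5, 39.5, 68.6, 55.2 and 114 TPM in control replicates 1 to 5, 107, 114, 53.9 and 113 in the day 1 libraries and 41.00, 49.9, 53.8 and 46.00 in the day 5 libraries. Day 1 replicate 3 stood apart at 53.9 TPM, within the control range, while its group mates were at the level of control replicate 5.

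The sodium-glucose cotransporter SGLT2 of the early segment, *Slc5a2*, had a mean of 36.8 TPM over all libraries. The neutral amino acid carrier *Slc6a19* ranged from 4.97 TPM in control replicate 2 to 25.03 TPM in day 1 replicate 4, and the sulfate carrier *Slc13a1* from 6.28 TPM in control replicate 2 to 18.6 TPM in control replicate 5. *Slc5a12*, a sodium-lactate cotransporter, measured 8.58, 9.13, 12.5, 14.8 and 26.7 TPM in control replicates 1 to 5, 21.9, 18.9, 18.7 and 29.7 in the day 1 libraries and 13.3, 14.7, 21.1 and 18.8 in the day 5 libraries. Its day 5 libraries lay between 13.3 and 21.1 TPM, and it had the highest log2 fold change of the 37 genes at day 5 against control, 0.37 (SE 0.28, adjusted p = 0.528). That value was 0.63 (SE 0.19, adjusted p = 0.0974) without control replicate 5, so it did not pass in either fit. With the replicate number as a block it passed, at 0.63 and an adjusted p of 0.04 by limma, although the labels do not say that the numbers pair animals. *Slc7a13*, an amino acid carrier of the late segment, *Slc17a1* and *Slc17a3*, phosphate and urate carriers, *Slc3a1*, the heavy subunit of the cystine carrier, and *Pdzk1*, the scaffold that holds several of these carriers in the brush border, each had control replicate 5 and the day 1 libraries as their 5 highest. Of the 12 apical transport genes, 12 had a positive log2 fold change at day 1 (median 0.77, from 0.44 to 0.92), as had 49.2% of all tested genes, and 0 were called, as were 0.0908% of all genes.

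Of the 3 genes of basolateral organic anion handling, *Slc22a6* and *Slc13a3* had control replicate 5 and the day 1 libraries as their 5 highest, and *Slc22a8* did not. *Slc22a6*, the organic anion transporter OAT1, measured 23.99, 19.3, 30.5, 26.5 and 61.9 TPM in control replicates 1 to 5, 66.97, 63.6, 40.7 and 55.8 in the day 1 libraries and 26.2, 24.4, 32.02 and 29.2 in the day 5 libraries. Day 1 and day 5 did not overlap, and control replicate 5 lay inside the day 1 range. Its log2 fold change at day 1, 0.94 (SE 0.27, adjusted p = 0.241), was the highest of the 37, and was 1.22 (SE 0.17, adjusted p = 0.00912) without control replicate 5. *Slc13a3*, the sodium-dicarboxylate cotransporter, measured 17.8, 14.3, 21.3, 25.2 and 54.6 TPM in control replicates 1 to 5, 51.7, 40.3, 35.3 and 38.8 in the day 1 libraries and 23.8, 16.9, 21.8 and 23.6 in the day 5 libraries. Its control replicate 5 was above every day 1 library. *Slc22a8*, the transporter OAT3, measured 7.05, 4.46, 5.79, 10.5 and 17.2 TPM in control replicates 1 to 5, 15.8, 9.54, 11.3 and 12.96 in the day 1 libraries and 9.15, 9.86, 9.99 and 6.36 in the day 5 libraries, and its 3 groups overlapped.

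The endocytic receptors were present at low levels. *Lrp2*, which encodes megalin, measured 9.43, 6.60, 14.2, 11.8 and 27.3 TPM in control replicates 1 to 5, 22.9, 18.4, 19.3 and 21.1 in the day 1 libraries and 9.20, 10.2, 14.9 and 12.5 in the day 5 libraries. *Cubn*, which encodes cubilin, measured 1.77, 1.34, 2.41, 2.28 and 5.96 TPM in control replicates 1 to 5, 4.89, 3.48, 3.64 and 4.77 in the day 1 libraries and 2.16, 2.64, 3.33 and 2.61 in the day 5 libraries. Both had day 1 libraries above control replicates 1 to 4 and control replicate 5 above all of day 1. At day 1 the log2 fold change of *Lrp2* was 0.74 (SE 0.30, adjusted p = 0.352), and 1.03 (SE 0.20, adjusted p = 0.0224) without control replicate 5. For *Cubn* the values were 0.70 (SE 0.30, adjusted p = 0.368) and 1.00 (SE 0.19, adjusted p = 0.0219).

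Of the peptidases of the brush border and lysosome, *Ggt1*, gamma-glutamyltransferase of the apical membrane (chr10:75387268-75422248 in GRCm39), measured 60.5, 57.9, 83.1, 86.9 and 146 TPM in control replicates 1 to 5, 153, 148, 112 and 145 in the day 1 libraries and 68.3, 69.7, 77.7 and 66.97 in the day 5 libraries. Every day 5 library was below every day 1 library, control replicate 5 was at the day 1 level, and the day 5 libraries lay within the range of the other controls. *Ggt1* fell from day 1 to day 5, with a log2 fold change of -0.98 (SE 0.24, adjusted p = 0.0478) by limma. Without control replicate 5 it was -0.98 (SE 0.14, adjusted p = 0.00184). The call is close to the threshold: without control replicate 3 or 4 the adjusted p was 0.0658 or 0.0661, and without day 1 replicate 1, 2 or 4 or any 1 day 5 library it lay between 0.101 and 0.127. *Napsa*, which encodes the aspartic protease napsin A, measured 47.8, 32.8, 63.2, 45.6 and 108 TPM in control replicates 1 to 5, 125, 89.7, 66.6 and 106 in the day 1 libraries and 41.6, 45.5, 54.03 and 40.3 in the day 5 libraries. *Dpep1*, the brush border dipeptidase, measured 4.02, 3.83, 8.22, 7.86 and 18.8 TPM in control replicates 1 to 5, 13.9, 11.8, 9.92 and 17.4 in the day 1 libraries and 7.08, 9.51, 10.9 and 9.10 in the day 5 libraries, with control replicates 1 and 2 below every other library.

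**Figure D3:**
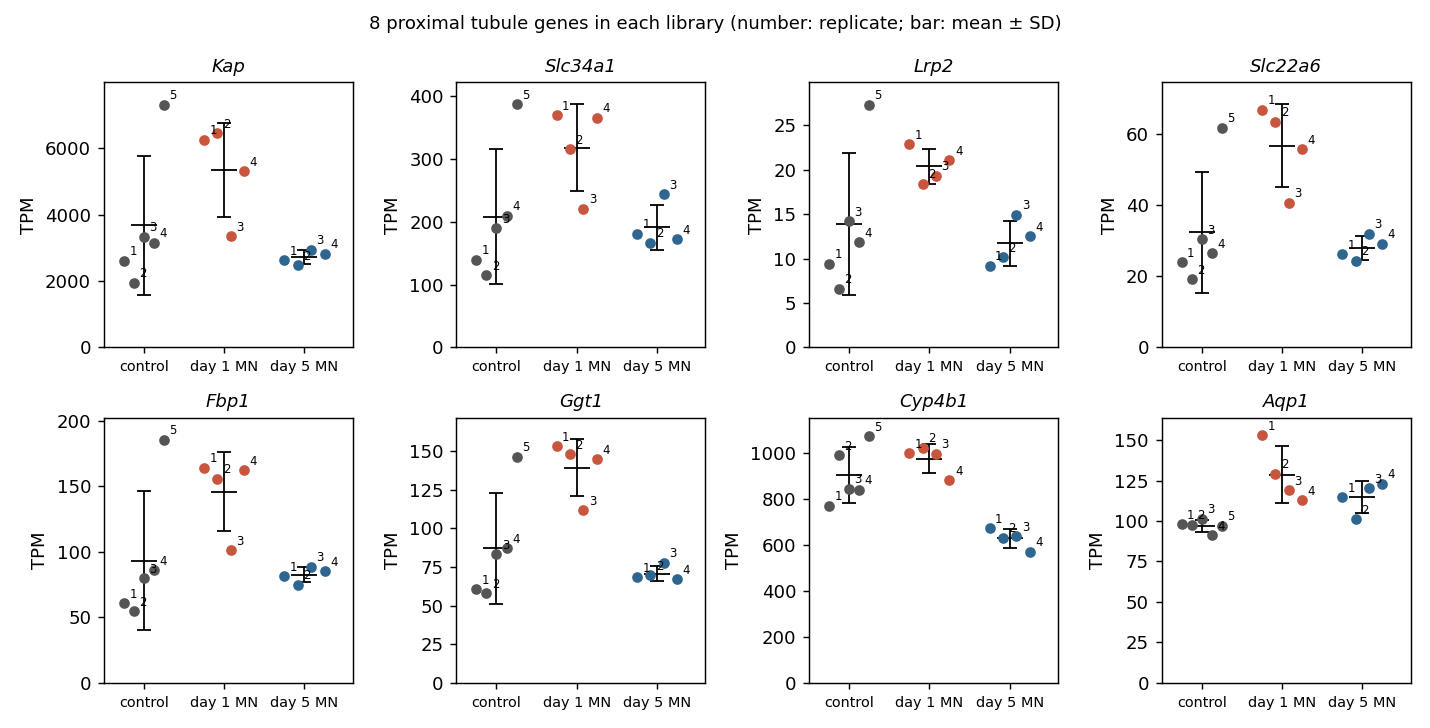
TPM of 8 of the genes (vertical axes from 0) in each library of the control, day 1 MN and day 5 MN groups; numbers are replicates and bars are mean ± SD. In 6 panels control replicate 5 sits with or above the day 1 libraries, while *Cyp4b1* is lowest in all 4 day 5 libraries and *Aqp1* is lower in all 5 control libraries than at day 1.

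The 3 genes of gluconeogenesis, the route by which these cells make glucose, each had control replicate 5 as their highest library. *Pck1*, phosphoenolpyruvate carboxykinase, measured 101, 88.8, 102, 167 and 329 TPM in control replicates 1 to 5, 246, 291, 214 and 195 in the day 1 libraries and 192, 105, 99.1 and 143 in the day 5 libraries. *Fbp1*, fructose-1,6-bisphosphatase, measured 60.6, 54.8, 79.7, 86.1 and 186 TPM in control replicates 1 to 5, 164, 156, 102 and 162 in the day 1 libraries and 81.5, 74.9, 88.8 and 85.1 in the day 5 libraries. *G6pc*, glucose-6-phosphatase, measured 18.4, 8.68, 18.5, 13.8 and 40.1 TPM in control replicates 1 to 5, 27.6, 33.1, 27.04 and 27.4 in the day 1 libraries and 21.4, 11.02, 13.4 and 17.5 in the day 5 libraries. Day 1 and day 5 did not overlap for any of the 3, and every day 5 library was below every day 1 library for 4.93% of all tested genes. For *Pck1* the lowest day 1 library, at 195 TPM, and the highest day 5 library, at 192 TPM, were almost at the same level. Their log2 fold changes from day 1 to day 5 were -0.85 for *Pck1*, -0.81 for *Fbp1* and -0.89 for *G6pc*, with adjusted p of 0.282, 0.217 and 0.238 by limma.

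In amino acid and inositol metabolism, *Ass1*, argininosuccinate synthase, measured 167, 164, 187, 241 and 395 TPM in control replicates 1 to 5, 398, 279, 260.0 and 358 in the day 1 libraries and 202, 174, 245 and 181 in the day 5 libraries. Another gene, Gm5424, has a transcript at least 90% identical to at least 50% of that of *Ass1*, and it was listed at 0 in 11 of the 13 libraries. *Miox*, which oxidizes inositol, measured 88.96, 66.9, 114, 158 and 272 TPM in control replicates 1 to 5, 214, 181, 165 and 196 in the day 1 libraries and 136, 119, 149 and 119 in the day 5 libraries. *Gatm*, which makes the precursor of creatine, measured 57.9, 45.1, 75.2, 70.9 and 106 TPM in control replicates 1 to 5, 89.2, 74.4, 77.8 and 119 in the day 1 libraries and 62.3, 66.97, 84.3 and 67.6 in the day 5 libraries. Its 3 groups overlapped, and its log2 fold change at day 1 was 0.42 (SE 0.21, adjusted p = 0.434). *Hpd*, an enzyme of tyrosine breakdown, was the least abundant tested gene apart from *Cubn*, between 2.36 TPM in control replicate 2 and 13.6 TPM in control replicate 5.

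In fatty acid, acyl-CoA and xenobiotic metabolism, *Acsm2*, a medium-chain acyl-CoA synthetase, measured 232, 170.1, 340.3, 277 and 613 TPM in control replicates 1 to 5, 545, 556, 352 and 585 in the day 1 libraries and 247, 255, 307 and 316 in the day 5 libraries. *Cyp2e1*, a cytochrome P450 of small organic compounds, measured 105, 86.2, 128, 133 and 314 TPM in control replicates 1 to 5, 252, 276, 148 and 268 in the day 1 libraries and 102, 111, 126 and 122 in the day 5 libraries. Both had control replicate 5 above every day 1 library. *Slc27a2*, a very long-chain acyl-CoA synthetase, ranged from 72.7 to 265 TPM, *Keg1*, a glycine N-acyltransferase-like protein, from 52.5 to 228 TPM, and *Akr1c21*, a hydroxysteroid dehydrogenase, from 13.6 to 51.1 TPM. *Slc27a2* had a log2 fold change of 0.83 (SE 0.29, adjusted p = 0.299) at day 1, and *Keg1* and *Akr1c21* had 0.60 and 0.54, with adjusted p of 0.452 and 0.489 by limma. *Hnf4a*, a nuclear receptor that drives many of these genes, measured 11.1, 13.03, 18.2, 16.3 and 33.6 TPM in control replicates 1 to 5, 26.9, 25.5, 21.01 and 27.4 in the day 1 libraries and 12.8, 13.8, 20.1 and 15.7 in the day 5 libraries. Control replicate 5 and the day 1 libraries were again its 5 highest, and the log2 fold change was 0.59 (SE 0.25, adjusted p = 0.376) at day 1 and 0.84 (SE 0.16, adjusted p = 0.0219) without control replicate 5.

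*Kap*, the kidney androgen-regulated protein of mouse proximal tubule (chr6:133826814-133830725 in GRCm39), alone made up between 43.1 and 56.6% of the summed TPM of the 38 genes. It measured 2617, 1945, 3328, 3155 and 7313 TPM in control replicates 1 to 5, 6249, 6447, 3355 and 5313 in the day 1 libraries and 2624, 2472, 2943 and 2819 in the day 5 libraries. Its day 1 replicate 3 was close to control replicate 3, and its day 5 libraries were the most even. The log2 fold change was 0.70 (SE 0.31, adjusted p = 0.391) at day 1 and -0.25 (SE 0.31, adjusted p = 0.737) at day 5. *Ttc36*, a tetratricopeptide repeat protein, measured 56.8, 52.8, 73.4, 81.1 and 151 TPM in control replicates 1 to 5, 170.4, 143, 93.9 and 152 in the day 1 libraries and 58.3, 65.1, 71.7 and 66.4 in the day 5 libraries, and had the lowest log2 fold change of the 37 from day 1 to day 5, -1.07 (SE 0.28, adjusted p = 0.0664), which did not pass. A near-identical transcript by the same measure as for *Ass1* belongs to Gm48702, so reads could be split between them. Without control replicate 5 it was -1.07 (SE 0.18, adjusted p = 0.00491).

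A few genes departed from this pattern. *Cyp4b1*, a cytochrome P450 of fatty acid and xenobiotic oxidation (chr4:115476281-115504999 in GRCm39), measured 771, 990.3, 844, 841 and 1073 TPM in control replicates 1 to 5, 999.6, 1023, 998 and 881 in the day 1 libraries and 673, 632, 638 and 571 in the day 5 libraries. Control replicate 5 was the highest library but by little. Every day 5 library was below every day 1 library, as for 4.93% of all tested genes. Every day 5 library was also below every control, and how many of all genes had that was not counted. *Cyp4b1* fell from day 1 to day 5 by limma, with a log2 fold change of -0.64 (SE 0.11, adjusted p = 0.00453). Against control at day 5 it was -0.48 (SE 0.10, adjusted p = 0.0122), past the adjusted p of 0.05 but short of the fold of 0.5 on the log2 scale, and -0.40 (SE 0.09, adjusted p = 0.0173) without control replicate 5. It passed both limits without control replicate 1 (-0.54), 3 (-0.50) or 4 (-0.51) or day 5 replicate 1 (-0.53). At day 1 it had the lowest log2 fold change of the 37, 0.16 (SE 0.10, adjusted p = 0.534).

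*Aqp1*, the water channel of proximal tubule, thin descending limb, red cells and many endothelia, measured 97.9, 97.6, 101, 91.1 and 96.97 TPM in control replicates 1 to 5, 153, 129, 119 and 113 in the day 1 libraries and 115, 101, 120.2 and 123 in the day 5 libraries. It was the only one of the 37 genes whose day 1 libraries all lay above all 5 controls, control replicate 5 included, and it varied little among controls. The log2 fold change was 0.44 (SE 0.08, adjusted p = 0.0868) at day 1 and 0.27 (SE 0.08, adjusted p = 0.0751) at day 5, and neither passed. Without control replicate 5 the day 1 value was 0.46 (SE 0.09, adjusted p = 0.0256), past the adjusted p but not the fold. The 10 glomerular endothelial genes summed to 1.03 to 1.29% of the listed TPM in controls, 0.905 to 1.34% at day 1 and 1.07 to 1.34% at day 5, and the 5 red blood cell genes to 0.0208 to 0.0474%, 0.00922 to 0.0284% and 0.0207 to 0.0477%. The part of these cells in the *Aqp1* values was not tested. *Calml4*, a calmodulin-like protein of brush borders, measured 109.9, 125, 123, 118 and 111 TPM in control replicates 1 to 5, 139.5, 136, 115 and 126 in the day 1 libraries and 114, 116, 105 and 101 in the day 5 libraries. Its libraries all lay within a narrow range, and its control replicate 5 was among the lower ones.

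*Cyp4a14*, a fatty acid hydroxylase induced by PPAR-alpha, did not reach 1 TPM in 4 libraries and was not tested. It was listed at 0 in day 5 replicate 3, at 1.61 TPM in control replicate 5 and at no more than 0.445 TPM in the other 11 libraries. Control replicate 5 thus held the highest value for the rarest of the 38 genes, but as a single value near the floor. The day 1 libraries held 0.111, 0.186, 0.445 and 0.111 TPM. They overlapped control replicates 1 to 4 (0.035 to 0.129 TPM) and day 5 (0 to 0.314 TPM).

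The 4 genes of the early segment on the list (*Slc34a1*, *Slc5a2*, *Slc5a12* and *Slc6a19*) and the 3 of the late segment (*Slc7a13*, *Slc27a2* and *Akr1c21*) were set against each other. The ratio of their sums was 1.32, 1.39, 1.25, 1.68 and 1.31 in control replicates 1 to 5, 1.38, 1.31, 1.21 and 1.53 at day 1, and 1.58, 1.55, 1.94 and 1.46 at day 5. The sums rest mostly on *Slc34a1* and *Slc27a2*, with means over all libraries of 237 and 148 TPM. The other early genes had means of 12.3 to 36.8 TPM and the other late genes 28.8 and 35.5 TPM. Control replicate 5 was ordinary in this ratio. The day 5 libraries lay at or above 1.46, and overlapped with control replicate 4 and day 1 replicate 4.

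Day 1 against control asks which transcripts changed early after antibody. Of the 37 tested proximal tubule genes, 0 were called by limma (adjusted p under 0.05 and a log2 fold change beyond 0.5), in a comparison with 13 calls among 14322 genes (0.0908%). All 37 log2 fold changes were positive, with a median of 0.76, against -0.0029 over all tested genes. At an unadjusted p under 0.05, 28 were higher at day 1, where 7.23% of all genes were. Only *Aqp1* had every day 1 library above every control, as did 0.908% of all genes.

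Control replicate 5 decided these counts. Without it, 26 of the 37 genes were called higher at day 1, in a comparison where 1.47% of 14257 genes were, and the median log2 fold change was 1.03. Without it, 27 genes had every day 1 library above every remaining control, as did 3.54% of all genes. The 11 genes not called in that fit were *Slc5a2*, *Aqp1*, *Slc22a8*, *Slc22a12*, *Gatm*, *Cyp4b1*, *Slc6a19*, *Keg1*, *Calml4*, *Akr1c21* and *Hpd*. Leaving out any other single library left 0 genes called at day 1.

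Day 5 against control asks which transcripts differed once the disease was established. Again 0 of the 37 genes were called, in a comparison with 460 calls among 14322 genes (3.21%), and 2 genes (*Cyp4b1* and *Aqp1*) had an unadjusted p under 0.05, against 20.1% of all genes. The median log2 fold change was -0.094 and 13 of 37 values were positive. Without control replicate 5 the median was 0.18, 33 of 37 were positive, and 0 were called, where 2.83% of all genes were. Leaving out any other single library kept the median below 0.

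Day 5 against day 1 compares the 2 antibody groups directly and shares its libraries with both comparisons above. All 37 log2 fold changes were negative, with a median of -0.80 against 0.0049 over all tested genes. Called as lower were 2 genes, *Cyp4b1* and *Ggt1*, where 0.398% of all genes were. At an unadjusted p under 0.05, 25 were lower at day 5, against 7.72% of all genes, and 26 had every day 5 library below every day 1 library, against 4.93%. The fold changes in this comparison do not use the controls, but the estimated spread does. Without control replicate 5, 20 of the 37 were called lower, where 1.52% of all genes were, at almost the same median of -0.80.

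**Figure D4:**
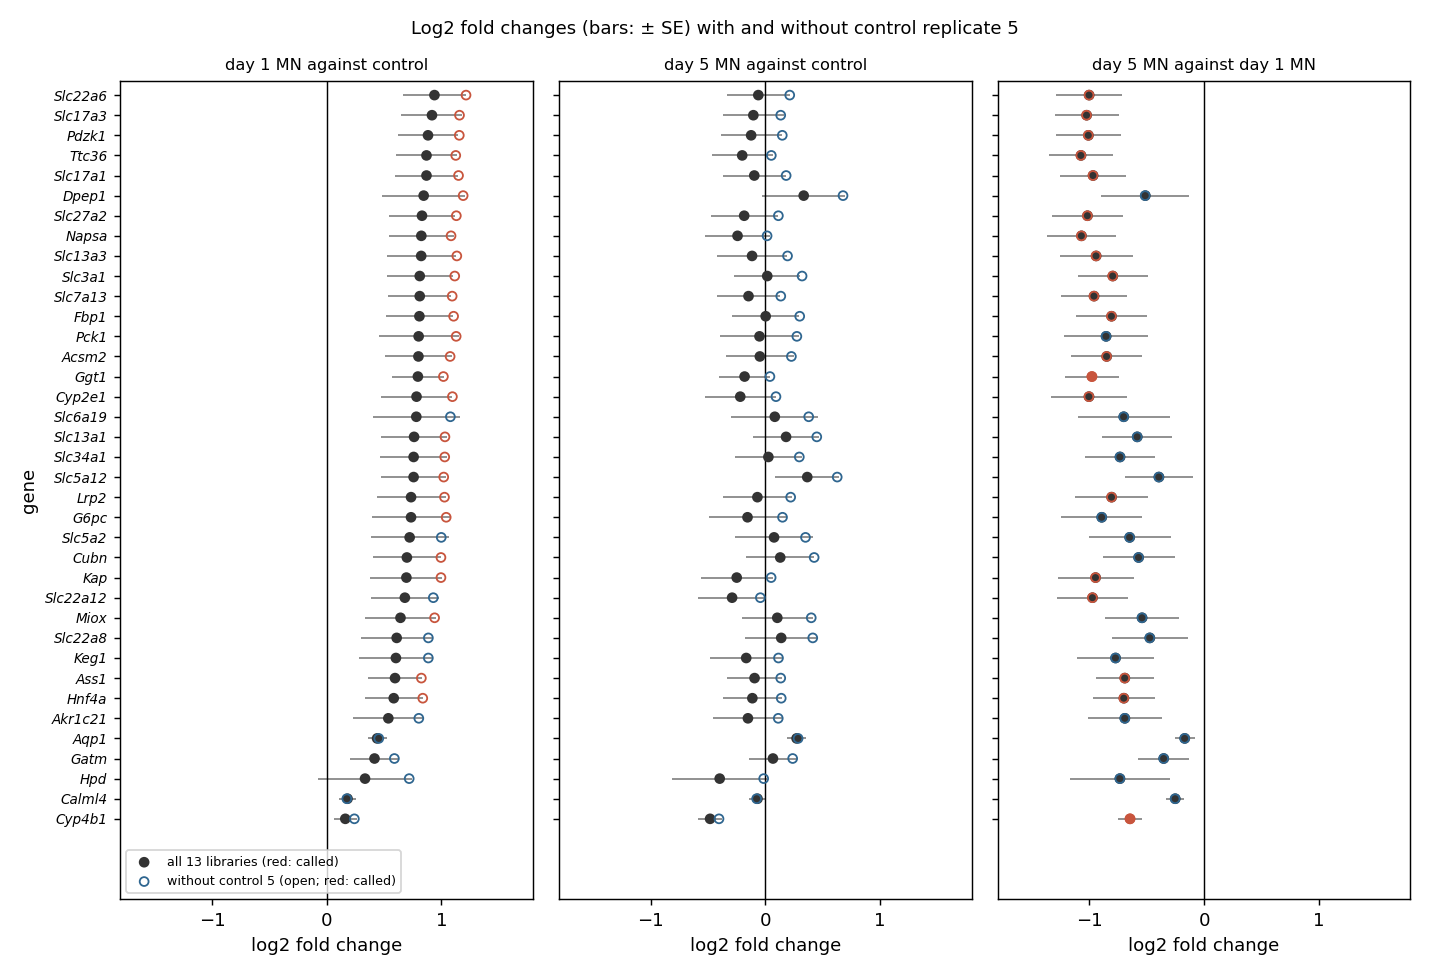
Log2 fold changes of the 37 tested genes in the 3 comparisons (horizontal axis; bars are ± SE of the fit on all libraries), ordered by the day 1 value, with filled points for all 13 libraries and open points without control replicate 5; red marks called genes. With all libraries, red appears only for *Ggt1* and *Cyp4b1* in day 5 against day 1, and without control replicate 5 in 26 genes at day 1 and 20 in day 5 against day 1.

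The wider lists give the setting of these values. At day 1 the median log2 fold change was 0.64 over the 89 tested genes of the further proximal tubule list and 0.65 over the 20 tested genes of the loop, distal tubule and collecting duct list, with 0 and 1 genes called (*Pvalb*, a calcium-binding protein of the distal convoluted tubule, at a log2 fold change of 1.43). It was -0.097 over 12 podocyte genes, 0.024 over 10 endothelial genes and -0.015 over 8 mesangial genes, with 0 called in each. Without control replicate 5, 37 of 88 further proximal tubule genes and 3 of 20 distal genes were called higher at day 1, where 1.47% of all genes were, and 0 in the podocyte, endothelial and mesangial lists. From day 1 to day 5, 4 of the 89 further proximal tubule genes were called lower (*Aadat* at a log2 fold change of -1.21, *Acy1*, *Acy3* and *Nat8*) and 3 of the 20 distal genes (*Aqp2*, *Calb1* and *Pvalb*), where 0.398% of all genes were. The median log2 fold change there was -0.71 over the further proximal tubule list and -0.78 over the distal list, beside -0.80 over the 37 genes. The 9 tubule injury genes summed to 64.6 to 96.7 TPM in controls. The sums were 97.0 to 136 TPM at day 1 and 111 to 138 TPM at day 5. By sum, every MN library lay above every control, control replicate 5 included. Day 1 replicate 3 (97.0 TPM) did so by little over control replicate 4 (96.7 TPM). The 5 tested genes did not keep that order. As median deviation on the log2 scale from each gene's median, day 1 replicate 3 had -0.087. Day 5 replicates 1 and 2 had -0.13, below 0.17 in control replicate 4 and 0 in control replicate 5. Of the 5 tested, 5 had a positive log2 fold change at day 1 (median 0.86), 4 had an unadjusted p under 0.05 and 0 were called. The 3 parietal epithelium genes summed to 11.5 to 15.4 TPM, 16.2 to 20.03 TPM and 18.3 to 22.9 TPM, and *Cldn1*, a claudin of parietal cells, was called higher at day 5 against control at a log2 fold change of 1.08. The median over these 3 genes in that comparison was 0.22, from 0.086 to 1.08. Of the injury genes, *Clu*, which encodes clusterin, was called higher at day 5 against control, at a log2 fold change of 1.61. The median over the 5 tested injury genes there was 0.52, with 4 values positive. None of the 7 leukocyte and 5 red blood cell genes tested was called at day 1 or day 5 against control. Of all genes, 0.0908% were called at day 1 and 3.21% at day 5, the share that also stands beside *Cldn1* and *Clu*. At day 5 against control, *Slc8a1* of the distal list and *Cdkn1c* of the podocyte list were called higher, and *Plce1* of the podocyte list lower. Mitochondrial transcripts (mt- symbols) made up 5.54 to 7.35% of the listed TPM in controls, 6.87 to 8.44% at day 1 and 6.28 to 6.92% at day 5. The part of tubular RNA in differences of other genes between these groups was not tested.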

How the data were processed

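RNA of isolated glomeruli was sequenced by the authors, reads were assigned with kallisto 0.46.2 against GRCm39, and TPM values per gene symbol and library were deposited. FastQC 0.11.9 and Trimmomatic 0.39 are named in the submitters' processing notes. Read counts were not analysed here, so library depth is unknown and no interval from counting was given. Groups came from the labels. Replicates are separate samples by label.

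Each library was scaled by a median-of-ratios factor (0.955 to 1.04) and values were transformed as log2(TPM + 0.5), so fold changes of low genes are understated. Genes with at least 1 TPM in at least 4 libraries were tested (14322 of 35967) with limma 3.58.1 in R 4.3.3, with a mean-variance trend over all 3 groups and Benjamini-Hochberg adjustment over all tested genes in each comparison. Calls required a log2 fold change beyond 0.5 in either direction at an adjusted p under 0.05. The procedure was tested on simulated data. Near-identical transcripts were sought with BLAST 2.17.0, loci came from GENCODE (GRCm39), promoters from RefSeq (GRCm38.p6), and plots were drawn with matplotlib 3.10.9.

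The members and lists were chosen with earlier results of these data known. Given library by library are called genes, the 3 most abundant of each role, and the genes with the highest and lowest log2 fold change in each comparison. Alternatives covered the pseudocount, scaling, filter, trend, samples in the fit, replicate block, library weights, call rule, total and each library left out in turn.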

Additional observations from a re-analysis of the deposited data

Results flagged for a closer look

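In 12 of 114 groups of libraries examined (37 tested genes and their sum, in 3 groups each), 1 library lay far from the others by Dixon's criterion. For a single group, chance alone marks about 1 in 20. The genes move together in the same libraries, so the 114 are not separate trials and the count cannot be set against that rate. Control replicate 5 was the library in 9 of the 12. Its values, each above the highest of the other 4 controls, were 7313 TPM for *Kap* (others at most 3328), 314 for *Cyp2e1* (133), 186 for *Fbp1* (86.1), 151 for *Ttc36* (81.1), 61.9 for *Slc22a6* (30.5), 54.6 for *Slc13a3* (25.2), 40.4 for *Slc3a1* (17.1) and 5.96 for *Cubn* (2.41), and 12969 TPM for the summed 38 genes (6526). Day 1 replicate 3 lay below its group for *Slc22a12*, at 53.9 TPM against at least 107, and for *Fbp1*, at 102 TPM against at least 156. Day 1 replicate 2 lay above its group for *G6pc*, at 33.1 TPM against at most 27.6.

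Day 5 libraries differed from day 1 libraries by limma for *Cyp4b1*, by -0.64 on the log2 scale, and for *Ggt1*, by -0.98. Both differences stand beside negative values of all 37 genes in this comparison, with a median of -0.80, and the call of *Ggt1* was lost without control replicate 3 or 4, day 1 replicate 1, 2 or 4 or any 1 day 5 library (adjusted p from 0.0658 to 0.127).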

How the results depend on the processing

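At day 1, 0 of the 37 genes were called, between 0 and 26 with single libraries left out (26 without control replicate 5 and 0 in every other such fit), and 18 with the replicate number as a block (of 149 called among all genes, against 13 without it). At day 5 against control the count was 0, between 0 and 1 with single libraries left out (*Cyp4b1* without control replicate 1, 3 or 4 or day 5 replicate 1), and 1, again *Cyp4b1* and lower, for TPM without further scaling (448 among all genes), quantile normalization (444) and the adjusted p alone (876, against 460). With the replicate block it was 1 of 348, *Slc5a12*, higher at 0.63 on the log2 scale. For day 5 against day 1 it was 2, between 1 and 20 with single libraries left out (20 without control replicate 5, 5 without day 1 replicate 3 and 4 without control replicate 2), 1 each with no filter, with at least 1 TPM in every library and with no trend, 9 with array quality weights (312 among all genes, against 259), 15 with the replicate block (331) and 23 (414) when the fit held just the 2 groups compared, which leaves out the spread of the controls. *Cyp4b1* was called in day 5 against day 1 under all alternatives run, and *Ggt1* had an adjusted p of 0.0999, 0.0518 and 0.0729 with no filter, at least 1 TPM in every library and no trend.

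Same-numbered libraries did not deviate together (r from -0.0563 to 0.0913 over 12 pairs). The labels name no pairing by number, and these correlations do not show whether animals were paired. No other group has a replicate 5, so the block in effect leaves control replicate 5 out. Without the 3 most abundant genes (*Kap*, *Cyp4b1* and *Acsm2*) the summed share was 0.222% in controls, 0.328% at day 1 and 0.194% at day 5, and with mitochondrial symbols left out of the total, day 5 was 0.599%. The median log2 fold change at day 5 against control turned from -0.094 to 0.18 without control replicate 5 and with the block, and no called value changed its sign. TPM give no depth, so low genes such as *Cubn* and *Hpd* carry an unknown counting error.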
